A study of Solanum lycopersicum with 15 samples.

Results

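Plasma membrane proton pumps were followed at 3 loci in tomato (Solanum lycopersicum) roots. They were taken by identifier from a deposited expression table of 34075 genes. LHA1 is Solyc03g113400 on chromosome 3, LHA4 is Solyc07g017780 on chromosome 7, and the third locus, Solyc06g071100 on chromosome 6, is given by its identifier. All 3 loci were present in the table, none was at 0 in any of the 15 libraries, and all 3 were among the 18889 genes expressed highly enough to be tested. Chromosomes are those in the identifiers.

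Plasma membrane H+-ATPases use ATP to push protons out of the cell. The resulting acidity and membrane voltage drive the uptake of other ions, including the symport of nitrate with protons, and proton release into the soil helps to dissolve ferric iron for roots that reduce iron before taking it up. The pumps are also regulated as proteins, through an autoinhibitory C-terminal region and the binding of 14-3-3 proteins, so a transcript level is not a measure of pump activity.

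The design has 5 nutrient regimes with 3 libraries of polyadenylated root RNA each. Roots received iron with nitrate (+Fe+Ni), iron with ammonium (+Fe+A), iron with urea (+Fe+U) or iron without nitrogen (+Fe-N, called iron alone), and control roots had neither iron nor nitrogen (-Fe-N). Root tissue is the only source the labels name, and they give no cultivar, plant age or time of resupply and do not say whether replicates came from separate plants, so p-values measure only the spread between these libraries, which may be technical. Levels are FPKM, the fragments counted on a transcript, divided by its length and by all mapped fragments of that library. Because FPKM is per transcript length, levels of different pumps can be set side by side. The FPKM of a library summed to 546848 to 589451, and the depth of the libraries relative to each other, read from the steps between low values, was 0.877 to 1.28. Absolute depth is unknown and no counting interval can be given. Root marker genes were not checked, since the table pairs no identifier with a name. In bulk tissue a lower value from fewer cells of a type and one from less RNA per cell cannot be told apart. The pumps belong to a conserved family, and how fragments matching more than 1 family member were counted is not given in the sources used here. Other members of the family were not identified in the table, so ranks and shares among the pumps hold for these 3 loci only.

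LHA4 was the most abundant of the 3 pump transcripts in every library and had the widest range, 289 to 1287 FPKM. It had 1113, 1073 and 1287 FPKM with iron and nitrate, 560.6, 496 and 599.6 FPKM with iron and ammonium, 289, 340.1 and 326 FPKM with iron and urea, 391.5, 397 and 419 FPKM with iron alone, and 518, 560.1 and 522 FPKM in control roots. Every nitrate library lay far above all others, every urea library lay below all others, and only the ammonium and control libraries overlapped. By mean level LHA4 ranked 24 among the 34075 genes with nitrate, 100 with ammonium, 223 with urea, 147 with iron alone and 79 in control roots, and it held 0.205% of all FPKM with nitrate against 0.0702% with iron alone. From high to low its regime means were 1158 ± 114 FPKM with nitrate, 552 ± 52.2 with ammonium, 533 ± 23.2 in control roots, 402 ± 14.6 with iron alone and 318 ± 26.3 with urea (SD, n = 3 each), a span of 3.64-fold. Ammonium and control, neighbours in that order, were the only pair of the 10 that did not differ by the test (adjusted p = 0.78).

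Solyc06g071100 was second in level in every library, between 65.3 and 121 FPKM. It had 110.3, 107 and 121 FPKM with nitrate, 82.3, 82.3 and 79.9 FPKM with ammonium, 65.3, 78.7 and 71 FPKM with urea, 90.1, 80.6 and 96.7 FPKM with iron alone, and 98.8, 100 and 99 FPKM in control roots. The nitrate libraries were again the highest and the urea libraries the lowest, and iron alone overlapped ammonium. Its regime means ran from 113 ± 7.08 FPKM with nitrate through 99.3 ± 0.637 in control roots, 89.1 ± 8.08 with iron alone and 81.5 ± 1.36 with ammonium to 71.7 ± 6.72 with urea (SD, n = 3 each), a span of 1.58-fold. No pair of neighbours in that order differed by the test (adjusted p = 0.15, 0.28, 0.35 and 0.15).

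LHA1 was the least abundant of the 3 pumps and had the narrowest span of regime means, with libraries between 35.9 and 53.5 FPKM. It had 53.5, 52.3 and 52.4 FPKM with nitrate, 46.3, 43.7 and 49.6 FPKM with ammonium, 37.5, 37.3 and 35.9 FPKM with urea, 48, 47.1 and 46.9 FPKM with iron alone, and 42.5, 47.4 and 44.8 FPKM in control roots. The urea libraries stood below all others and the nitrate libraries above all others, with ammonium, iron alone and control overlapping in between. Its regime means were 52.7 ± 0.668 FPKM with nitrate, 47.3 ± 0.586 with iron alone, 46.5 ± 2.94 with ammonium, 44.9 ± 2.46 in control roots and 36.9 ± 0.885 with urea (SD, n = 3 each), a span of 1.43-fold. Of the neighbours in that order only urea and control differed by the test (adjusted p = 0.0049), and nitrate against iron alone did not (adjusted p = 0.13).

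**Figure D1:**
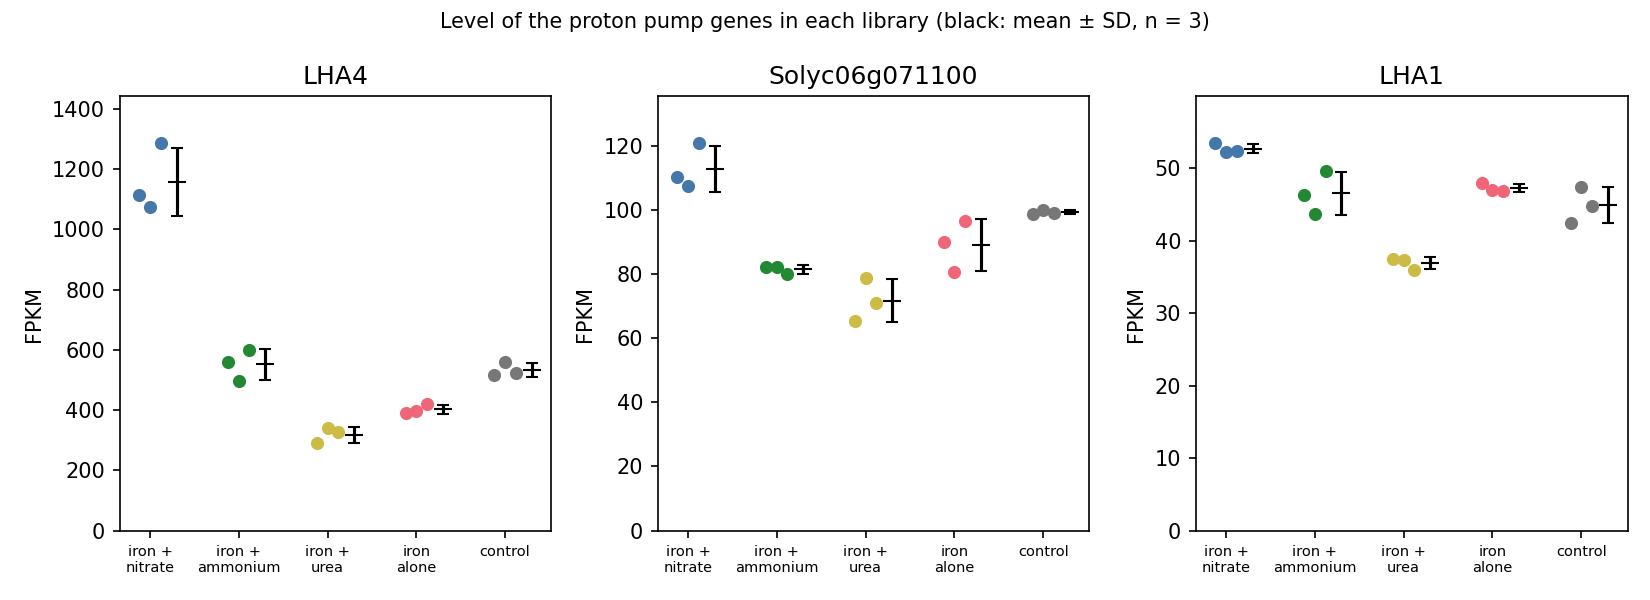
FPKM of LHA4, Solyc06g071100 and LHA1 (vertical axes from 0) in each library of the 5 regimes, with the mean ± SD of 3 libraries in black. Nitrate is highest and urea lowest for all 3 genes, and LHA4 with nitrate, at 1073 to 1287 FPKM, stands apart from the other LHA4 libraries.

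Differences were tested with limma on log2(FPKM + 1) over all 15 libraries and all 18889 tested genes. Adjusted p-values are two-sided, with Benjamini-Hochberg adjustment over those genes, and a gene is called, or said to have risen or fallen, at an adjusted p under 0.05. Confidence intervals are for single genes and are not adjusted, so an interval can exclude 0 where the gene is not called. Each pump differed among the 5 regimes by the F test of that fit, with adjusted p = 2.3e-07 for LHA4, 0.00028 for Solyc06g071100 and 0.00043 for LHA1. The same test called 37.8% of all tested genes. The comparisons with iron alone share its 3 libraries, and those with control share the control libraries.

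Iron alone was set against control to ask what iron without nitrogen does to the pumps. LHA4 fell to 402 FPKM with iron alone, against 533 FPKM in control roots, with log2 change -0.41 and standard error 0.09 (adjusted p = 0.022). Solyc06g071100 averaged 89.1 FPKM with iron alone and 99.3 FPKM in control roots (log2 change -0.16, 95% confidence interval -0.33 to 0.01, adjusted p = 0.28). The libraries of these regimes did not overlap for LHA4, nor for Solyc06g071100, which was not called. How many of all tested genes had no overlap was not computed. LHA1, at 47.3 FPKM with iron alone and 44.9 FPKM in control roots, had an interval of -0.06 to 0.21 for its log2 change (adjusted p = 0.54). So 1 of 3 pumps was called lower, where 3.43% of tested genes were. The median log2 change was -0.16 over the pumps and 0.01 over all tested genes. The LHA4 call was lost without control replicate 2 or 3 (log2 change -0.37 and -0.42, adjusted p = 0.085 and 0.061) and without iron-alone replicate 1 or 2 (-0.39 and -0.40, adjusted p = 0.078 and 0.067).

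Nitrate raised LHA4 the most. With nitrate added to iron, LHA4 averaged 1158 FPKM, against 402 FPKM with iron alone, which was 2.88-fold higher (log2 change 1.52, standard error 0.09, adjusted p = 4.5e-07). The gain of 755 FPKM was exceeded by 4 of the tested genes. A larger fitted log2 change was found for 149 tested genes, among them 16 of the 1073 genes that averaged at least 100 FPKM over the libraries. Solyc06g071100 rose to 113 FPKM with nitrate, against 89.1 FPKM with iron alone (log2 change 0.34, standard error 0.08, adjusted p = 0.014). LHA1, at means of 52.7 FPKM with nitrate and 47.3 FPKM with iron alone, was not called (log2 change 0.15, 95% confidence interval 0.02 to 0.29, adjusted p = 0.13). Nitrate and iron-alone libraries did not overlap for any pump, called or not, and the share of all tested genes without overlap was not computed. In all 2 of 3 pumps were called higher, with 4.58% of tested genes called higher. The call of Solyc06g071100 was lost when only these regimes were fitted (adjusted p = 0.08), without iron-alone replicate 2 (log2 change 0.27, adjusted p = 0.057) and without nitrate replicate 3 (0.29, adjusted p = 0.072).

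**Figure D2:**
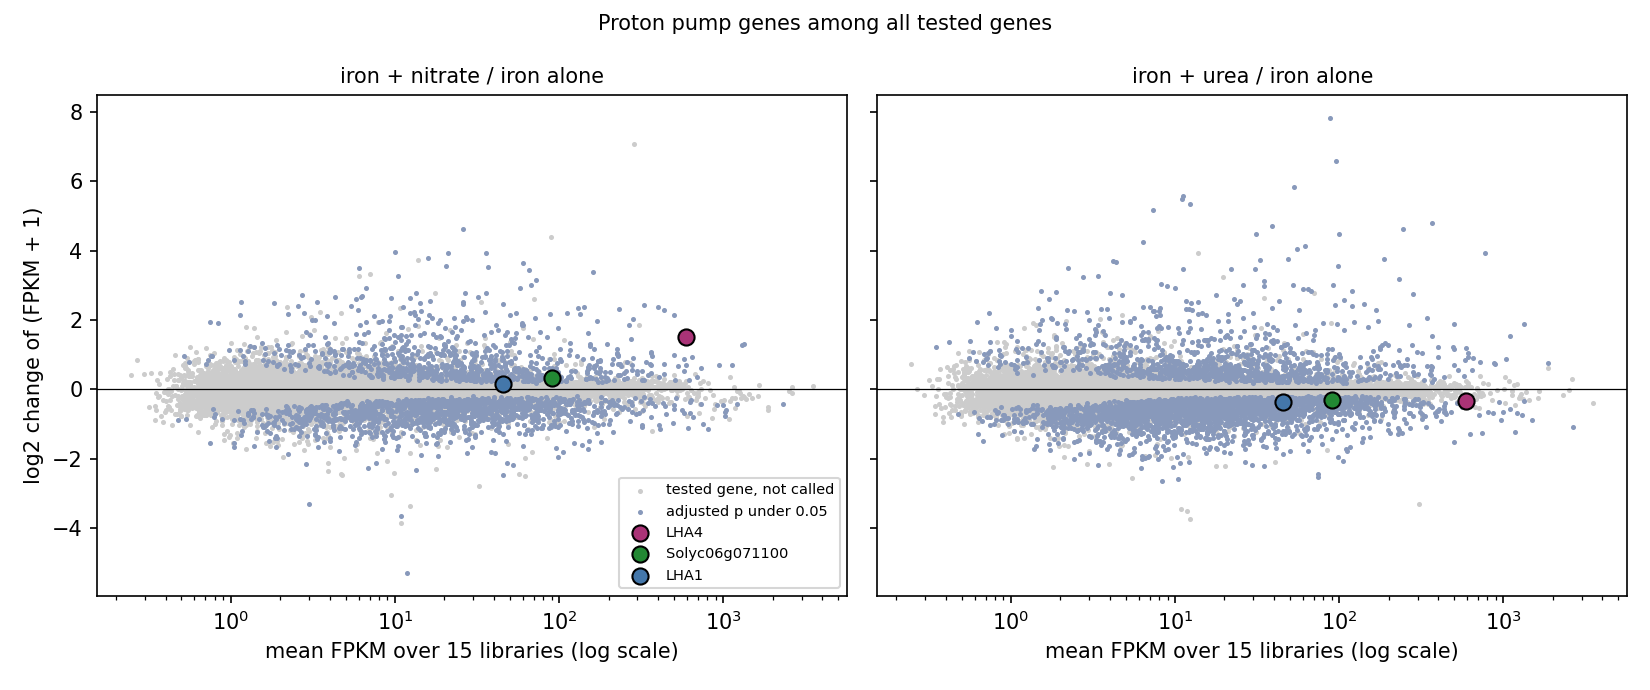
Fitted log2 change of (FPKM + 1) against mean FPKM over 15 libraries (log scale) for all 18889 tested genes, for nitrate against iron alone (left) and urea against iron alone (right), with called genes in blue-grey and the pumps as large points. LHA4 lies at a log2 change of 1.52 with nitrate, exceeded by 16 of the 1073 genes that averaged at least 100 FPKM, while with urea all 3 pumps lie between -0.35 and -0.31.

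With ammonium added to iron, 1 of the 3 pumps was called, LHA4, which rose. It averaged 552 FPKM with ammonium and 402 FPKM with iron alone, 1.37-fold higher (log2 change 0.45, standard error 0.09, adjusted p = 0.006). Its libraries did not overlap, and the share of all tested genes without overlap was not computed. Solyc06g071100 stood at 81.5 FPKM with ammonium and 89.1 FPKM with iron alone (log2 change -0.12, 95% confidence interval -0.30 to 0.05, adjusted p = 0.35). LHA1 stood at 46.5 FPKM with ammonium and 47.3 FPKM with iron alone (log2 change -0.02, interval -0.16 to 0.11, adjusted p = 0.84), and the sign was positive with size factors (0.0099) and without ammonium replicate 2 (0.0187). The share of tested genes called higher with ammonium was 6.29%.

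With urea added to iron, all 3 pumps were lower. LHA1 fell by 21.9%, LHA4 fell by 20.9% and Solyc06g071100 fell by 19.6%. LHA1 stood at 36.9 FPKM with urea, against 47.3 FPKM with iron alone (log2 change -0.35, standard error 0.06, adjusted p = 0.0015). LHA4 fell to 318 FPKM with urea, against 402 FPKM with iron alone (log2 change -0.34, standard error 0.09, adjusted p = 0.021), and Solyc06g071100 fell to 71.7 FPKM with urea, against 89.1 FPKM with iron alone (log2 change -0.31, standard error 0.08, adjusted p = 0.015). Libraries of urea and iron alone did not overlap for any pump, and the share of all tested genes without overlap was not computed. In this comparison 13.2% of tested genes were called lower, and the median log2 change of all tested genes was -0.10. Size factors, which centre the median gene, shift the libraries of urea against those of iron alone by -0.12 on the log2 scale. After that shift LHA1 was still called lower (log2 change -0.24, adjusted p = 0.026), and LHA4 and Solyc06g071100 were not (-0.22 and -0.20, adjusted p = 0.11 and 0.064). The calls of LHA4 and Solyc06g071100 were also lost when only these regimes were fitted (adjusted p = 0.057 and 0.099), without iron-alone replicate 3 (log2 change -0.31 and -0.25, adjusted p = 0.072 and 0.07) and without urea replicate 1 (-0.27 and -0.25, adjusted p = 0.088 and 0.072).

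Between nitrogen forms, nitrate gave the higher pump levels. Against ammonium, nitrate had 2.1-fold more LHA4 (log2 difference 1.07, standard error 0.09, adjusted p = 1.2e-05) and 1.39-fold more Solyc06g071100 (0.46, standard error 0.08, adjusted p = 0.0027). LHA1 was 1.13-fold higher with nitrate, without a call (log2 difference 0.18, 95% confidence interval 0.05 to 0.31, adjusted p = 0.11). That made 2 of 3 pumps higher with nitrate, where 3.38% of tested genes were. Against urea, nitrate had more of all 3 pumps, 3.64-fold for LHA4 (log2 difference 1.86, adjusted p = 4e-08), 1.58-fold for Solyc06g071100 (0.65, adjusted p = 6.8e-05) and 1.43-fold for LHA1 (0.50, adjusted p = 6.5e-05), where 11.3% of tested genes were called higher.

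Ammonium and urea, the forms other than nitrate, also differed. LHA4 was 1.73-fold higher with ammonium than with urea (log2 difference 0.79, standard error 0.09, adjusted p = 0.00016), and LHA1 was 1.26-fold higher (0.32, standard error 0.06, adjusted p = 0.0047). Solyc06g071100, at 81.5 FPKM with ammonium and 71.7 FPKM with urea, was not called (0.19, 95% confidence interval 0.01 to 0.36, adjusted p = 0.15). The background was 7.09% of tested genes called higher with ammonium. The LHA1 call was lost when only these regimes were fitted (adjusted p = 0.057).

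**Figure D3:**
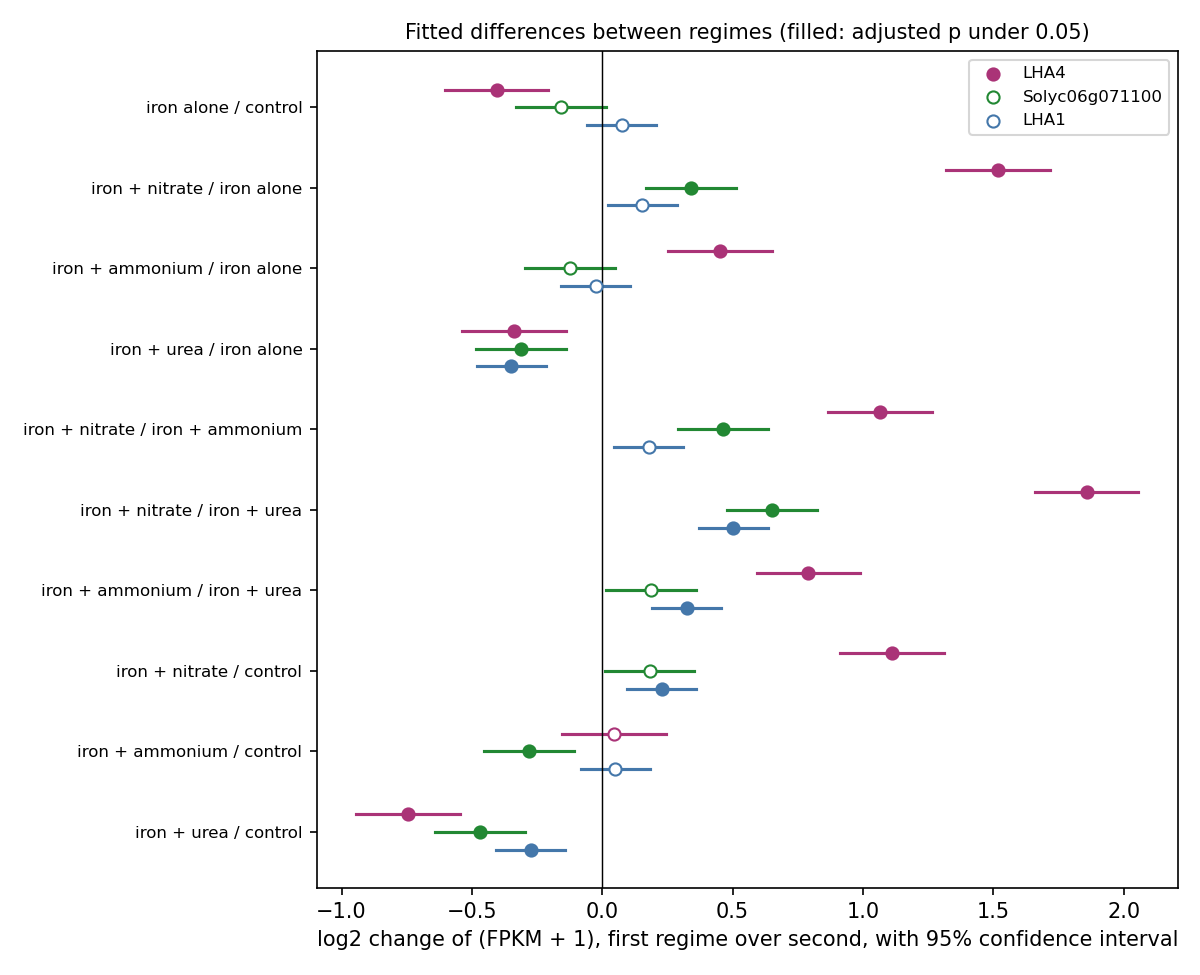
Fitted log2 change of (FPKM + 1) with its unadjusted 95% confidence interval (horizontal axis) for the 3 pumps in the 10 comparisons, each the first regime over the second, filled where the adjusted p is under 0.05. LHA4 has the largest change in the comparisons that involve nitrate, up to 1.86 against urea, and the pumps sit close together for urea against iron alone.

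Compared with control roots, which lacked iron as well as nitrogen, the forms again placed the pumps differently. With iron and nitrate LHA4 was 2.17-fold higher than in control roots (log2 change 1.11, standard error 0.09, adjusted p = 5.8e-06) and LHA1 was 1.17-fold higher (0.23, standard error 0.06, adjusted p = 0.022), while Solyc06g071100 was not called at 113 FPKM with nitrate and 99.3 FPKM in control roots (0.18, 95% confidence interval 0.01 to 0.35, adjusted p = 0.15). The tested genes called higher in that comparison made up 6.92%. The LHA1 call rested on most libraries. It was lost without control replicate 1 or 3 (log2 change 0.19 and 0.23, adjusted p = 0.094 and 0.067), without nitrate replicate 1, 2 or 3 (0.22, 0.23 and 0.23, adjusted p = 0.064, 0.056 and 0.052), with equal FPKM totals (adjusted p = 0.054) and when only these regimes were fitted (adjusted p = 0.061). With size factors Solyc06g071100 was called as well (log2 change 0.22, adjusted p = 0.042).

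With iron and ammonium 1 of 3 pumps, Solyc06g071100, was called against control roots, where 10.9% of tested genes were called lower. It fell to 81.5 FPKM with ammonium, against 99.3 FPKM in control roots (log2 change -0.28, standard error 0.08, adjusted p = 0.023). LHA4 averaged 552 FPKM with ammonium and 533 FPKM in control roots, with an interval of -0.15 to 0.24 for its log2 change, which took a negative sign with equal FPKM totals (-0.01), with quantile normalization (-0.14) and without ammonium replicate 3 (-0.02). The log2 change of LHA1 had an interval of -0.08 to 0.18 (adjusted p = 0.62) and its sign was negative with equal FPKM totals (-0.0049). The Solyc06g071100 call was lost without control replicate 1, 2 or 3 (log2 change -0.29, -0.28 and -0.28, adjusted p = 0.056, 0.065 and 0.062), and also with ammonium replicate 1 or 3 left out (-0.29 and -0.27, adjusted p = 0.057 and 0.067).

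With iron and urea all 3 pumps were lower than in control roots, where 17.6% of tested genes were. LHA4 fell by 40.3% with urea, to 318 FPKM with urea, against 533 FPKM in control roots (log2 change -0.75, standard error 0.09, adjusted p = 7.2e-05). Solyc06g071100 had a log2 change of -0.47 (standard error 0.08, adjusted p = 0.00079) and LHA1 one of -0.27 (standard error 0.06, adjusted p = 0.0049). Libraries did not overlap for any of them, again with no share over all tested genes computed. With size factors, which shift urea against control by -0.10 on the log2 scale, the LHA1 call was lost (log2 change -0.17, adjusted p = 0.071) and those of LHA4 and Solyc06g071100 were not (-0.64 and -0.37, adjusted p = 0.00024 and 0.0015).

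The balance among the pumps is given as ratios. Ratios of pumps within a library do not depend on how that library is scaled. LHA4 had 20.8, 20.5 and 24.6 times the FPKM of LHA1 with nitrate, 12.1, 11.4 and 12.1 times with ammonium, 7.71, 9.11 and 9.08 times with urea, 8.16, 8.43 and 8.94 times with iron alone, and 12.2, 11.8 and 11.7 times in control roots. Nitrate stood clear of the rest, ammonium overlapped control and urea overlapped iron alone. On the log2 scale the ratio of LHA1 to LHA4 averaged -4.45 ± 0.15 with nitrate and -3.09 ± 0.07 with iron alone (SD, n = 3 each), a difference of -1.36. Ammonium minus iron alone was -0.48, urea minus iron alone was -0.02, and iron alone minus control was 0.48. The exact two-sided permutation test gave p = 0.1 for nitrate, ammonium and iron, the smallest that 3 libraries against 3 allow (adjusted over the 4 comparisons, 0.133), and p = 0.8 for urea, and this permutation test of 3 libraries against 3 cannot reach 0.05 whatever the size of the difference.

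**Figure D4:**
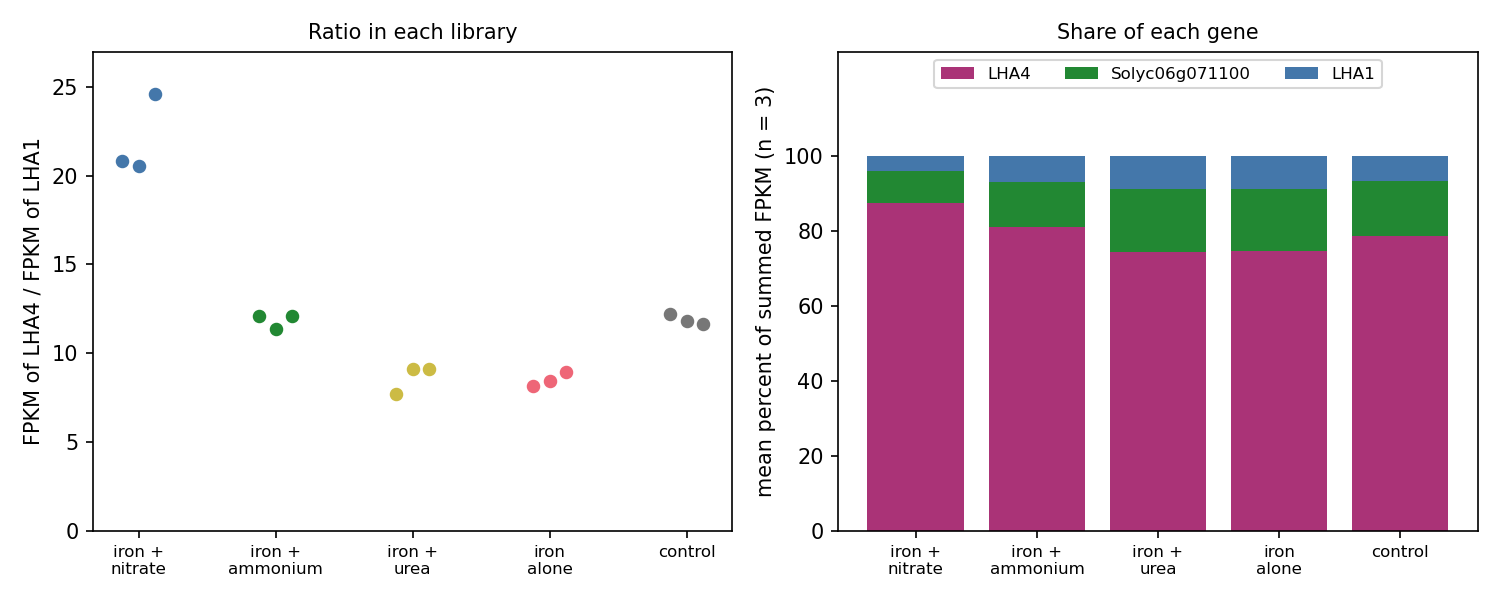
Left, FPKM of LHA4 divided by FPKM of LHA1 in each library (vertical axis from 0). Right, mean percent of the summed FPKM of the 3 pumps held by each (n = 3), with LHA4 at 87.5% with nitrate and 74.7% with iron alone.

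The summed FPKM of the 3 loci, given here without a test, averaged 1323 ± 121 with nitrate, 680.1 ± 54 with ammonium, 427 ± 32.5 with urea, 539 ± 20.7 with iron alone and 678 ± 26.2 in control roots (SD, n = 3 each). LHA4 held 87.5% ± 0.598 of that sum with nitrate, 81.1% ± 1.26 with ammonium, 74.5% ± 0.779 with urea, 74.7% ± 0.88 with iron alone and 78.7% ± 0.4 in control roots. LHA1 held 4.01% with nitrate and 8.79% with iron alone, and Solyc06g071100 held 8.55% with nitrate and 16.5% with iron alone, although neither had a lower FPKM with nitrate. Across the 15 libraries log2(FPKM + 1) of LHA4 had a Pearson r of 0.82 with LHA1 and 0.83 with Solyc06g071100, and LHA1 and Solyc06g071100 had one of 0.77. These values describe the same libraries, which differ by regime, and were not computed within regimes.

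Genes most alike in pattern were sought among 12639 other tested genes with a mean of at least 5 FPKM, by Pearson r of log2(FPKM + 1) over the 15 libraries, as a description of these libraries. LHA4 was closest to Solyc01g094290 (r = 0.99), Solyc04g076090 (r = 0.99) and Solyc06g083120 (r = 0.99), and 100 genes had r above 0.9 with it. Solyc06g083120 averaged 340.1 ± 65.6 FPKM with nitrate, 99.8 ± 18 with ammonium, 42.9 ± 13.3 with urea, 65 ± 8.58 with iron alone and 102 ± 2.65 in control roots (SD, n = 3 each). Solyc01g094290 followed the same order of regimes as LHA4 except that control stood above ammonium, with 37.5 ± 3.18 FPKM with nitrate, 17.8 ± 1.77 with ammonium, 10.6 ± 0.493 with urea, 14.5 ± 1.11 with iron alone and 19.2 ± 2.14 in control roots.

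For Solyc06g071100 the closest were Solyc02g081600, Solyc06g063070 and Solyc03g043740 (r = 0.97, 0.97 and 0.96), and 45 genes had r above 0.9. Of these Solyc06g063070 averaged 248 ± 40.6 FPKM with nitrate, 120.1 ± 4.47 with ammonium, 83.3 ± 19.5 with urea, 155 ± 12.2 with iron alone and 206 ± 7.88 in control roots. For LHA1 they were Solyc10g011660, Solyc03g119640 and Solyc01g010000 (r = 0.94, 0.93 and 0.92), and only 7 genes had r above 0.9. Solyc10g011660 had 84.7 ± 3.19 FPKM with nitrate, 75.3 ± 3.5 with ammonium, 56.5 ± 1.92 with urea, 74.5 ± 7.13 with iron alone and 68 ± 1.6 in control roots. The others spanned more than LHA1 did. Solyc03g119640 averaged 19.15 FPKM with nitrate and 2.43 FPKM with urea, and Solyc01g010000 averaged 32.6 FPKM with nitrate and 6.21 FPKM with urea. The table gives these genes no name.

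**Figure D5:**
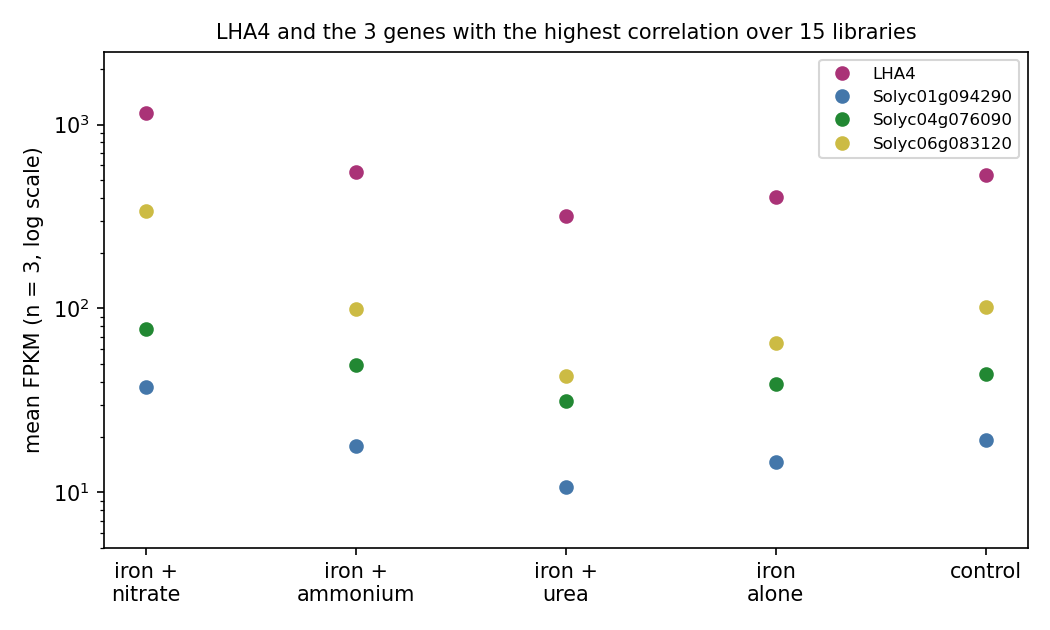
Mean FPKM (n = 3, log scale) of LHA4 and of the 3 genes with the highest Pearson r with it over 15 libraries, by regime. All 4 are highest with nitrate and lowest with urea, a likeness for which the 3 genes were chosen, with LHA4 at 1158 and 318 FPKM.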

How the data were processed

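FPKM values per gene for 15 libraries were used as deposited by the authors, in a single table. HISAT2 was used, per the submitters' processing notes. Not given in the sources used here are its version, the genome build and the program behind the FPKM values. Gene identifiers end in ITAG4.0. FPKM corrects for transcript length and depth but not for RNA composition. Columns were matched to libraries through the library names in the labels, and 0 pairs of libraries held identical values. Relative depth was read from 2276 genes present in at most 8 libraries. A single depth per library matched 103 of 105 pairs within 0.05 on the log2 scale.

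The 3 members, the tests and the alternatives were chosen with earlier results of these data known. The 18889 genes (55.4%) that reached 1 FPKM in 3 libraries or more were transformed as log2(FPKM + 1) and fitted with limma 3.58.1 in R 4.3.3, with a mean per regime, all 15 libraries and a mean-variance trend. A log2 change on this scale understates the change of low genes. The limma fit was tested on simulated data. Named genes were the 3 members and, for each, the 3 genes with the highest Pearson r. Other genes of the pathway were to be taken from RefSeq names, but 0 RefSeq entries in the table at hand (assembly SLM_r2.1) carried an identifier of this kind, so none are described and no coordinates or sequences are given.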

Additional observations from a re-analysis of the deposited data

How the results depend on the processing

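Alternatives were a pseudocount of 0.1, no filter on low values, a minimum mean of 5 FPKM, quantile normalization, equal FPKM totals, size factors, no variance trend, a block for the replicate number, a fit of the compared groups alone, and leaving out single libraries. Of 547 alternative values over 37 results, 508 kept direction and call, 29 lost the call, 1 gained it and 9 changed sign, all 9 of them in differences that were not called. The cause was not tested. LHA4 with nitrate kept direction and call against iron alone in all 15 alternatives (log2 change 1.44 to 1.57), against ammonium (0.99 to 1.14), against urea (1.78 to 1.91) and against control (0.99 to 1.17), as did LHA4 with ammonium against iron alone (0.35 to 0.53).

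With size factors LHA4 and Solyc06g071100 for urea against iron alone (-0.22 and -0.20) and LHA1 for urea against control (-0.17) lost their calls, Solyc06g071100 for nitrate against control (0.22) gained one, and LHA1 for ammonium against iron alone turned to 0.0099. With equal FPKM totals LHA1 for nitrate against control (0.19) lost its call, and LHA1 and LHA4 for ammonium against control turned to -0.0049 and -0.0098. LHA4 in that comparison was -0.14 with quantile normalization. With only the groups compared the calls of Solyc06g071100 for nitrate (0.34) and urea (-0.31) against iron alone, LHA4 for urea against iron alone (-0.34), and LHA1 for ammonium against urea (0.32) and for nitrate against control (0.23) were lost.

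With a library left out, LHA4 ranged over -0.43 to -0.37 for iron alone against control, -0.39 to -0.27 for urea against iron alone and -0.0156 to 0.12 for ammonium against control. LHA1 ranged over 0.19 to 0.27 for nitrate against control and -0.0702 to 0.0187 for ammonium against iron alone. Solyc06g071100 ranged over 0.27 to 0.40 for nitrate and -0.38 to -0.25 for urea against iron alone, and -0.29 to -0.27 for ammonium against control. The log2 ratio of LHA1 to LHA4 for urea minus iron alone ranged over -0.0968 to 0.024. Where a regime was left with 2 libraries, its spread was taken from all regimes.

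The replicate number as a block changed no call of a pump. LHA4 for nitrate against iron alone stayed at 1.52 (adjusted p = 2.6e-06 by limma with Benjamini-Hochberg adjustment), and the genes called for that comparison numbered 2213 with the block and 2204 without. Deviations from the regime means were correlated between libraries of different regimes. For the same replicate number r was -0.11 to 0.14 over 30 pairs (median 0.02, 3 of them above 0.1). For different numbers r was -0.24 to 0.14 over 60 pairs (median -0.02, 2 of them above 0.1). Of the 15 libraries, 5 correlated best with their own number. With the absolute depth unknown, counting error could not be separated from the spread between libraries.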
